A study of Mus musculus with 16 samples.

Results

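The 40 genes described here encode the machinery that copies DNA and divides cells, and were chosen by name from a list of replication and mitosis genes; their measured values were not part of the rule. They were matched by symbol among the 25719 gene identifiers listed for every library, and all 40 were found. The tissue was the trigeminal ganglion of the mouse, the ganglion that holds the sensory neurons of the face together with their satellite glia and Schwann cells. Polyadenylated RNA was sequenced from 16 single ganglia in 4 groups of 4: wild-type (WT) mice or Nogo-A knockouts (KO), each taken on embryonic day 14 (E14) or postnatal day 25 (P25). The labels name no treatment, and every library was made from a whole ganglion. The sources used here give no strain, no sex and no construction of the KO allele. Each group is labelled as 4 animals. In the library names, however, E14 WT replicates 2 and 4 share a number and differ in the letters R and L, as do E14 KO replicates 1 and 3, so each of these pairs may be the ganglia of a single embryo.

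In a dividing cell, the MCM helicase is loaded onto replication origins by Cdc6 and Cdt1 before S phase, which licenses each origin to fire. Cyclin D and cyclin E with their kinases release E2F transcription factors from RB proteins and so drive entry from G1 into S phase. Cyclin A, cyclin B and Cdk1 then carry the cell into mitosis, where the Aurora and Polo kinases build the spindle, and Cdc20 with the APC/C ubiquitin ligase ends it. Mki67 and Top2a are widely used as marks of cycling cells, since both gene products are made mainly between S phase and mitosis. In the embryonic ganglion, glial and other progenitors still divide, while the sensory neurons themselves do not divide once formed.

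Levels are given as CPM, the deposited estimated counts scaled to library totals adjusted by TMM; means carry the standard deviation (SD) over the 4 libraries of a group. Library totals ran from 15532373 to 29562379 counts. Fold changes are log2 values with a standard error (SE) from edgeR's quasi-likelihood test, fitted to all 16 libraries and 15109 genes. A gene is said to be called, to rise or to fall, where its Benjamini-Hochberg adjusted p over all 15109 genes was under 0.05. All 40 genes passed the low-count filter. On the E14 libraries alone 40 would have passed, and on the P25 libraries alone 38 would have passed, without Bub1 and Ttk. The p-values measure the spread between these ganglia. Rtn4, the gene of Nogo-A, stood at 328, 144, 521 and 444 CPM in E14 WT and at 291, 405, 260 and 236 CPM in E14 KO. At P25 it stood at 494, 542, 512 and 406 CPM in WT and at 364, 380, 345 and 384 CPM in KO. The gene also makes other Nogo forms, so its total does not isolate Nogo-A.

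The library E14 WT replicate 2 differed from its group in a way that touched the cell cycle genes. For the correlations, its deviation was taken from the mean of the other E14 libraries, WT and KO together. Across 15089 genes, this deviation rose with the GC content of the transcript (Spearman rho 0.75), and across the 40 cell cycle genes rho was 0.88. These correlations are across genes of the same library, which are not independent replicates. Genes with AT-rich transcripts tended to be low there. Across the 40 genes the same deviation also fell with transcript length (rho -0.57, against -0.11 across all genes). Its median was -1.19 for the 9 genes with transcripts over 4 kb and 0.07 for those up to 4 kb. The parts of GC content and length were not tested. Ccne2, with a GC content of 36.3%, stood 3.16 log2 units below the mean of replicates 1, 3 and 4, and Bub1 stood 2.79 below. The GC-rich Cdt1 and E2f1 stood 0.59 and 0.60 log2 units above. Cenpe had no count in this library. Mki67 and Top2a stood at 0.305 and 5.67 CPM there, against 3.39 to 6.66 and 24.8 to 42.2 CPM in the other 3 E14 WT libraries. Without this library the WT stage changes of Mcm2, Mcm5, Rrm2, Ccna2 and Ccne1 were -2.06, -2.01, -3.32, -4.14 and 0.78, each called in the same direction as with it.

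**Figure D1:**
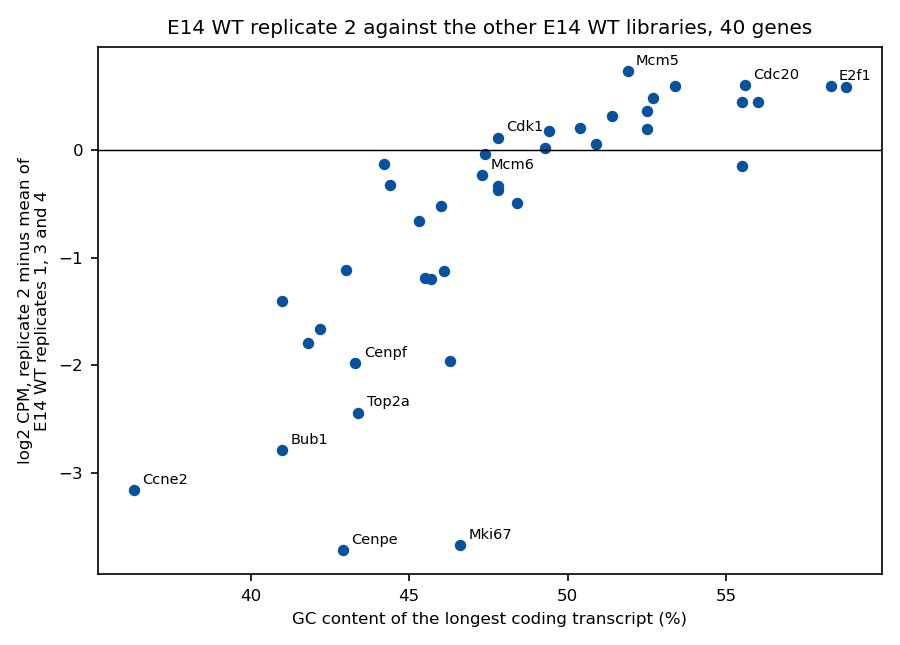
Each point is 1 of the 40 cell cycle genes. The x axis gives the GC content of the longest coding transcript in percent, and the y axis gives the log2 CPM of E14 WT replicate 2 minus the mean of E14 WT replicates 1, 3 and 4. The points climb from -3.16 for Ccne2 at 36.3% GC to 0.59 and 0.60 for the most GC-rich genes, with Cenpe (-3.72) and Mki67 (-3.67) lowest.

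The first comparison asked how far the cell cycle programme fell between E14 and P25. In WT, 34 of the 40 genes fell, where 29.8% of all tested genes were called lower, and 3 rose, where 29.7% were called higher. In KO, 33 fell, against 29.2% of all genes, and 3 rose, against 30.6%. The counts by role given below stand against these same shares. The median log2 change of the 40 genes was -2.35 in WT and -2.23 in KO, while the median over all tested genes was 0 and 0.01. Groups did not overlap, with P25 below E14, for 29 of the 40 genes in WT and 31 in KO, against 24.2% and 29.3% of all genes. Without E14 WT replicate 2, the WT counts were again 34 lower and 3 higher. The 3 genes that rose were the same in WT and KO and all act in G1: E2f1, Ccnd1 and Ccne1. These are RNA levels of whole ganglia, in which fewer cells of a type and less RNA per cell cannot be told apart.

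**Figure D2:**
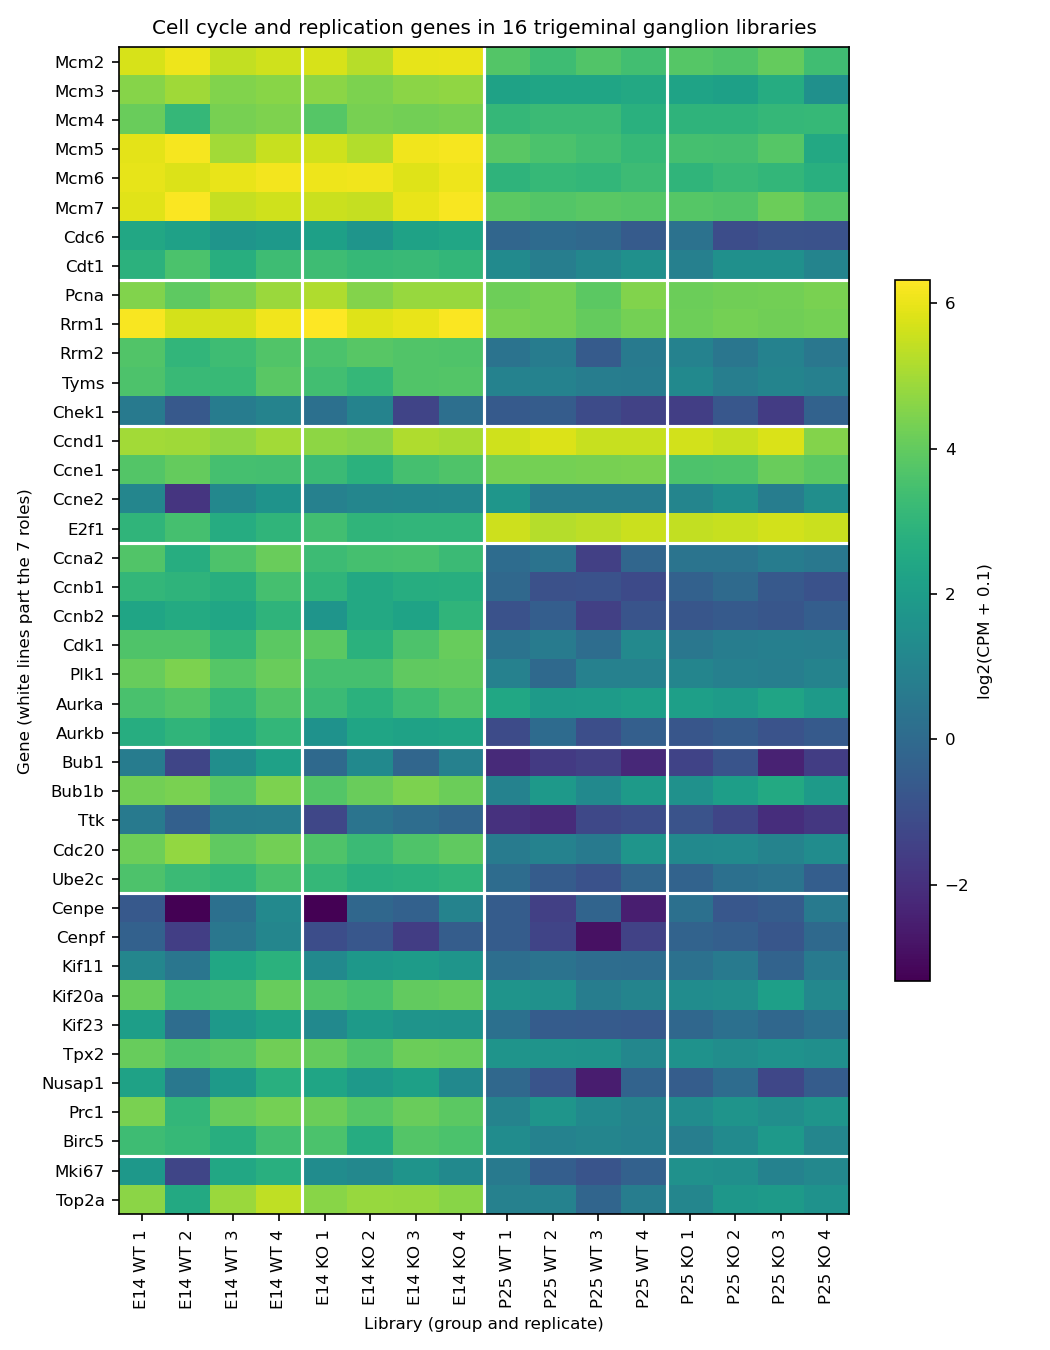
Rows are the 40 cell cycle genes, parted by white lines into 7 roles, and columns are the 16 libraries by group and replicate. Colour gives log2(CPM + 0.1). Most rows darken from E14 to P25 in WT and KO alike, and the E2f1 row brightens.

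Summed over the 40 genes, the E14 level was 664 ± 70.6 CPM in WT (SD, n = 4) and 659 ± 76.4 CPM in KO. The P25 level was 247 ± 12.8 CPM in WT and 248 ± 25.8 CPM in KO. Without the 3 rising genes, the other 37 summed to 613 ± 68.1 and 612 ± 69.0 CPM at E14, and to 135 ± 8.76 and 144 ± 10.8 CPM at P25. E2f1, Ccnd1 and Ccne1 made up 6.69% to 8.88% of the sum in each E14 library and 38.5% to 46.3% in each P25 library. The summed P25 level was therefore to a large part that of 3 genes of G1.

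The order of the genes per length of transcript also turned over. In E14 WT the highest levels per kilobase were those of Mcm7 (19.2 CPM per kb), Mcm2 (15.7), Mcm5 (15.5), Rrm1 (15.4), Mcm6 (14.5) and Pcna (14.3). In P25 WT they were those of E2f1 (15.7 CPM per kb), Ccnd1 (13.0), Pcna (12.3) and Ccne1 (10.0), with Rrm1 next at 4.76. E2f1 had been 27th in E14 WT, at 2.96 CPM per kb. In P25 KO the same 4 genes led, with E2f1 at 16.7, Pcna at 12.5, Ccnd1 at 11.6 and Ccne1 at 7.06 CPM per kb.

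The licensing genes, which load and form the replicative helicase, fell in all 8 cases in WT and in all 8 in KO, with medians of -2.20 and -2.24. Mcm2, a subunit of the helicase, stood at 53.3, 66.3, 42.7 and 49.6 CPM in E14 WT and at 13.2, 9.9, 13.0 and 10.3 CPM in P25 WT. The KO libraries held 53.2, 38.4, 62.7 and 63.1 CPM at E14 and at 13.5, 12.6, 16.4 and 10.2 CPM at P25. Every P25 library lay below every E14 library. Its log2 change was -2.19 (SE 0.21, edgeR adjusted p = 2.27e-08) in WT and -2.04 (SE 0.21, adjusted p = 5.58e-08) in KO. Mcm5, a further subunit, stood at 60.3, 73.4, 31.2 and 44.7 CPM in E14 WT and at 14.2, 11.8, 10.4 and 8.73 CPM in P25 WT. In KO its values were 48.5, 37.2, 69.4 and 72.2 CPM at E14 and 11.0, 10.6, 13.7 and 5.48 CPM at P25, again without overlap. Mcm5 changed by -2.22 (SE 0.30, adjusted p = 2.45e-06) in WT and by -2.48 (SE 0.30, adjusted p = 6.58e-07) in KO.

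The fitted falls of the 6 helicase subunits spanned a wide range. Mcm6 fell the furthest, by 2.89 in WT and by 3.03 in KO on the log2 scale, from 63.1 ± 6.25 to 8.53 ± 0.843 CPM in WT (SD, n = 4). Mcm4 fell the least, by 0.99 in WT and by 1.18 in KO, from 16.9 ± 5.87 to 8.51 ± 1.17 CPM in WT. In WT the Mcm4 groups overlapped: E14 WT replicate 2 was at 8.54 CPM and the other 3 at 17.2 to 21.6 CPM, while P25 WT held 6.92 to 9.44 CPM. Mcm2, Mcm3, Mcm5 and Mcm7 lay between, at -2.04 to -2.32 in WT. The differences between subunits were not tested. Of the loaders, Cdc6 fell from 4.12 ± 0.995 to 0.793 ± 0.151 CPM in WT and Cdt1 from 8.86 ± 2.40 to 2.22 ± 0.473 CPM.

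Of the 5 genes of DNA synthesis and the S-phase checkpoint, 4 fell in WT and 5 in KO. Rrm2, the subunit of ribonucleotide reductase that is made in S phase, stood at 12.8, 8.11, 9.84 and 12.8 CPM in E14 WT and at 1.17, 1.56, 0.574 and 1.43 CPM in P25 WT. The KO libraries held 11.9, 14.1, 12.9 and 12.5 CPM at E14 and at 1.81, 1.29, 1.83 and 1.31 CPM at P25. The groups lay far apart, with a log2 change of -3.20 (SE 0.28, adjusted p = 6.47e-09) in WT and -3.04 (SE 0.27, adjusted p = 1.11e-08) in KO. Its partner subunit Rrm1, which is also made outside S phase, fell by less, by 1.69 in WT and by 1.86 in KO, and kept 19.0 ± 2.02 CPM in P25 WT. Tyms, which makes thymidylate for DNA, fell by 2.71 in WT and by 2.56 in KO.

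Pcna, the sliding clamp of the DNA polymerases that also serves DNA repair, did not follow the other S-phase genes in WT. It stood at 22.3, 15, 20.4 and 29.3 CPM in E14 WT and at 17.9, 19.6, 14.6 and 22.2 CPM in P25 WT. These values overlapped, and the log2 change of -0.23 (SE 0.20, edgeR adjusted p = 0.35) was not called. It was 0.01 without E14 WT replicate 4 and -0.37 (adjusted p = 0.0779) without E14 WT replicate 2. In KO, Pcna stood at 36.1, 22.9, 28.5 and 28.6 CPM at E14 and at 17.5, 18.7, 19.1 and 20.8 CPM at P25. These did not overlap, and the change of -0.61 (SE 0.20, adjusted p = 0.014) was called, but not without E14 KO replicate 1 (-0.49, adjusted p = 0.0591). Chek1, a checkpoint kinase with a mean of at most 1.35 CPM in any group, was called lower in WT (-1.60, adjusted p = 0.0128) and in KO (adjusted p = 0.0397). The Chek1 call was lost in WT without E14 WT replicate 4 (adjusted p = 0.0526). In KO it was lost in 11 of 24 alternatives, with adjusted p from 0.0525 to 0.193, the latter without E14 KO replicate 2.

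The genes of G1 entry went the other way. E2f1, the transcription factor that switches on S-phase genes, stood at 7.84, 11.0, 6.14 and 7.71 CPM in E14 WT and at 48.3, 37.9, 40.5 and 46.4 CPM in P25 WT. E2f1 in KO stood at 10.3, 7.84, 8.1 and 7.91 CPM at E14 and at 42.7, 44.7, 49.7 and 46.8 CPM at P25. Every P25 library was above every E14 library, by 2.41 (SE 0.19, adjusted p = 1.27e-09) in WT and 2.43 (SE 0.19, adjusted p = 1.15e-09) in KO on the log2 scale, which is a 5.30-fold and a 5.39-fold rise. In KO it was the sole gene of the 40 whose P25 libraries all lay above its E14 libraries, against 30.5% of all genes, and in WT there were 3 such genes, against 26.1%. Without E14 WT replicate 2 the WT change of E2f1 was 2.58.

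Ccnd1, the D-type cyclin that senses growth signals, stood at 31.8, 30.6, 25.8 and 31.0 CPM in E14 WT and at 48.8, 55.2, 45.6 and 44.7 CPM in P25 WT. Ccnd1 in KO stood at 25.7, 23.4, 35.9 and 32.7 CPM at E14 and at 50.8, 45.6, 54.9 and 22.7 CPM at P25, where replicate 4 fell below all E14 KO libraries. The log2 change was 0.70 (SE 0.22, adjusted p = 0.00936) in WT and 0.56 (SE 0.22, adjusted p = 0.0329) in KO. Ccne1, cyclin E1, stood at 13.3, 16.3, 11.0 and 10.6 CPM in E14 WT and at 19.6, 19.5, 20.3 and 20.7 CPM in P25 WT. In KO the P25 values of 12.3, 12.5, 17.1 and 14.5 CPM met the E14 values of 9.48, 6.95, 11.0 and 12.4 CPM. Its log2 change was 0.65 (SE 0.20, adjusted p = 0.00875) in WT and 0.51 (SE 0.20, adjusted p = 0.0367) in KO. In KO both calls depended on single libraries: without P25 KO replicate 3 they had an adjusted p of 0.12 each, and both were also lost without E14 KO replicate 1 (Ccnd1 0.0864, Ccne1 0.0748) or E14 KO replicate 2 (0.0838, 0.0971). The Ccnd1 call was further lost without P25 KO replicate 1 (0.0949) or 2 (0.0565), and the Ccne1 call without P25 KO replicate 4 (0.0547). Ccne2, cyclin E2, was not called, at 0.11 (SE 0.45) in WT and 0.14 (SE 0.45) in KO.

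**Figure D3:**
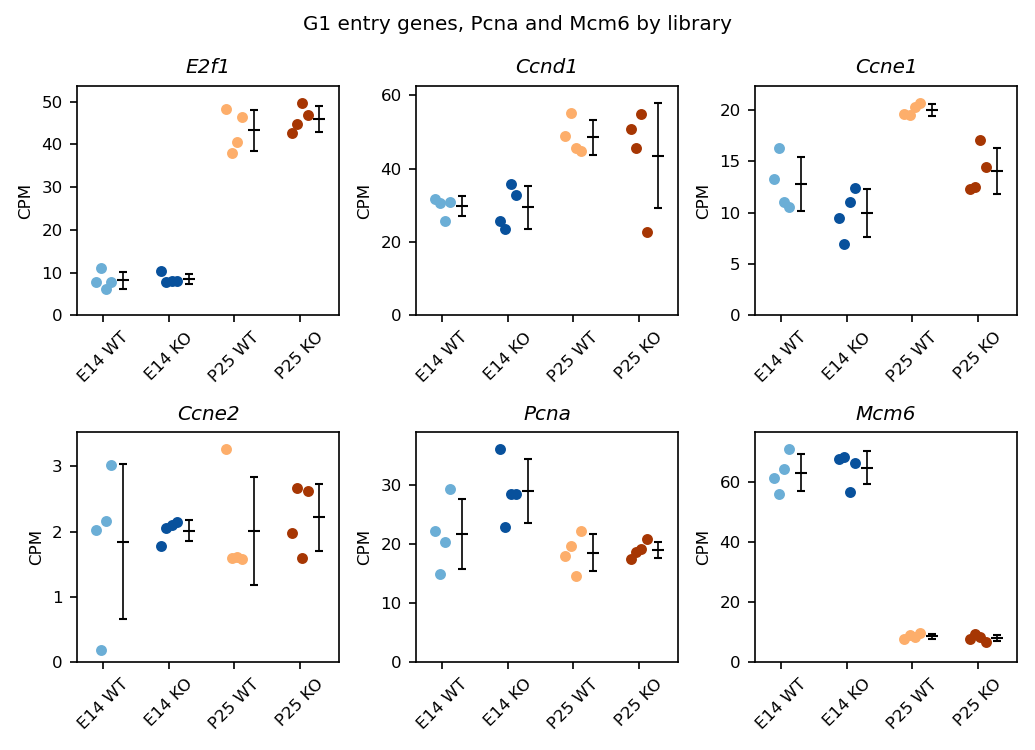
Each panel plots CPM (y axis, from 0) of 1 gene in each library, by group (x axis); dots are libraries and the black bar is the mean ± SD (n = 4). E2f1, Ccnd1 and Ccne1 have higher means at P25, Ccne2 has means of 1.85 to 2.22 CPM, the Pcna groups overlap in WT, and Mcm6 drops from 63.1 to 8.53 CPM in WT.

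The genes that carry a cell into mitosis showed the deepest median fall of the 7 roles, at -3.58 in WT and -3.03 in KO, and all 7 cyclins and kinases of this role fell in WT and in KO. Ccnb1, the cyclin that activates Cdk1 at mitotic entry, stood at 8.3, 7.62, 6.48 and 10.9 CPM in E14 WT and at 0.845, 0.421, 0.431 and 0.348 CPM in P25 WT. In KO it stood at 7.84, 5.55, 6.35 and 6.48 CPM at E14 and at 0.700, 0.905, 0.548 and 0.437 CPM at P25. No libraries overlapped, and the fall was 16.2-fold in WT (log2 -4.01, SE 0.32, adjusted p = 1.7e-09) and 10.05-fold in KO (log2 -3.33, SE 0.31, adjusted p = 1.86e-08). At this level the 4 P25 WT libraries together held 52 counts of Ccnb1.

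Ccna2, cyclin A2 of S phase and G2, stood at 12.8, 6.34, 12.3 and 17 CPM in E14 WT and at 0.966, 1.18, 0.251 and 0.811 CPM in P25 WT. In KO it stood at 9.67, 10.9, 11.3 and 9.33 CPM at E14 and at 1.19, 1.21, 1.55 and 1.35 CPM at P25. It fell by 3.92 (SE 0.36, adjusted p = 1.25e-08) in WT and by 2.95 (SE 0.34, adjusted p = 3.27e-07) in KO. Cdk1, the mitotic kinase itself, stood at 12.4, 12.4, 8.13 and 14.6 CPM in E14 WT and at 1.17, 1.52, 1.0 and 2.2 CPM in P25 WT. In KO its values were 14.8, 7.05, 12.3 and 16.8 CPM at E14 and 1.32, 1.59, 1.69 and 1.63 CPM at P25. Cdk1 fell by 3.01 (SE 0.30, adjusted p = 5.05e-08) in WT and by 3.03 (SE 0.30, adjusted p = 4.94e-08) in KO. Ccnb2, Plk1 and Aurkb fell by 3.46 to 3.71 in WT. Aurka, which acts at the centrosome, fell the least of the role, by 1.43 in WT and by 1.24 in KO, and kept 4.25 ± 0.721 CPM in P25 WT.

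The 5 genes of the spindle checkpoint and the APC/C all fell in WT and in KO, with medians of -3.31 and -2.38. Ube2c, the ubiquitin-conjugating enzyme of the APC/C, fell the furthest of them, by 3.88 in WT and by 3.04 in KO. Cdc20, its activator, fell from 19.8 ± 4.84 to 1.99 ± 0.782 CPM in WT and from 12.4 ± 2.53 to 2.25 ± 0.262 CPM in KO (SD, n = 4). Bub1b, Bub1 and Ttk hold cells in mitosis until chromosomes are attached. Bub1b kept 2.85 ± 0.915 CPM in P25 WT, while Bub1 and Ttk were at 0.175 and 0.249 CPM on average there, with 18 and 26 counts over the 4 libraries. The Ttk call in KO (-1.60, adjusted p = 0.0121) was lost without E14 KO replicate 2 (-1.34, adjusted p = 0.0507).

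Of the 9 genes of the spindle, kinetochore and cytokinesis, 8 fell in WT and 7 in KO. Nusap1, Prc1, Kif20a and Tpx2, which bundle and organise spindle microtubules, fell by 2.48 to 2.96 in WT and by 2.3 to 2.58 in KO. Kif11, the motor that pushes spindle poles apart, and Kif23, a motor of cytokinesis, fell by 1.91 and 2.24 in WT. The kinetochore genes Cenpe and Cenpf, which have the long transcripts of 7910 and 11130 bases, were low throughout, at means of at most 1.06 CPM. Cenpe was not called in WT (-1.20, SE 0.85, adjusted p = 0.233) or KO (0.06, SE 0.82, adjusted p = 0.959). Cenpf was called lower in WT (-1.84, SE 0.61, adjusted p = 0.0138), but not without E14 WT replicate 4 (-1.26, adjusted p = 0.102), and not in KO (0.64, SE 0.61, adjusted p = 0.378).

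Of the 2 common marks of cycling cells, both fell in WT and Top2a alone was called in KO. Top2a, the topoisomerase that untangles chromosomes, stood at 24.8, 5.67, 28.9 and 42.2 CPM in E14 WT and at 1.77, 1.81, 0.789 and 1.58 CPM in P25 WT. In KO it stood at 24.0, 28.0, 27.3 and 24.0 CPM at E14 and at 2.06, 3.36, 3.74 and 2.94 CPM at P25. It showed the deepest fall of all 40 genes in WT, at -4.10 (SE 0.43, adjusted p = 1e-07), or -4.43 without E14 WT replicate 2, and fell by 3.09 (SE 0.41, adjusted p = 2.03e-06) in KO. Mki67, which encodes the Ki-67 protein on mitotic chromosomes, stood at 3.39, 0.305, 5.4 and 6.66 CPM in E14 WT and at 1.41, 0.632, 0.467 and 0.695 CPM in P25 WT. It fell in WT by 2.3 (SE 0.54, adjusted p = 0.00104), or by 2.68 without E14 WT replicate 2, whose value lay below all P25 WT libraries. In KO, Mki67 stood at 2.46, 2.15, 3.03 and 2.29 CPM at E14 and at 2.80, 2.71, 1.83 and 2.14 CPM at P25. These overlapped, and the change of -0.06 (SE 0.51, adjusted p = 0.926) was not called. For all genes with transcripts of 8 to 12 kb, the class of Mki67 and Cenpf, the median stage change was -0.19 in WT and 0.13 in KO. The part of transcript length in the stage changes was not tested.

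**Figure D4:**
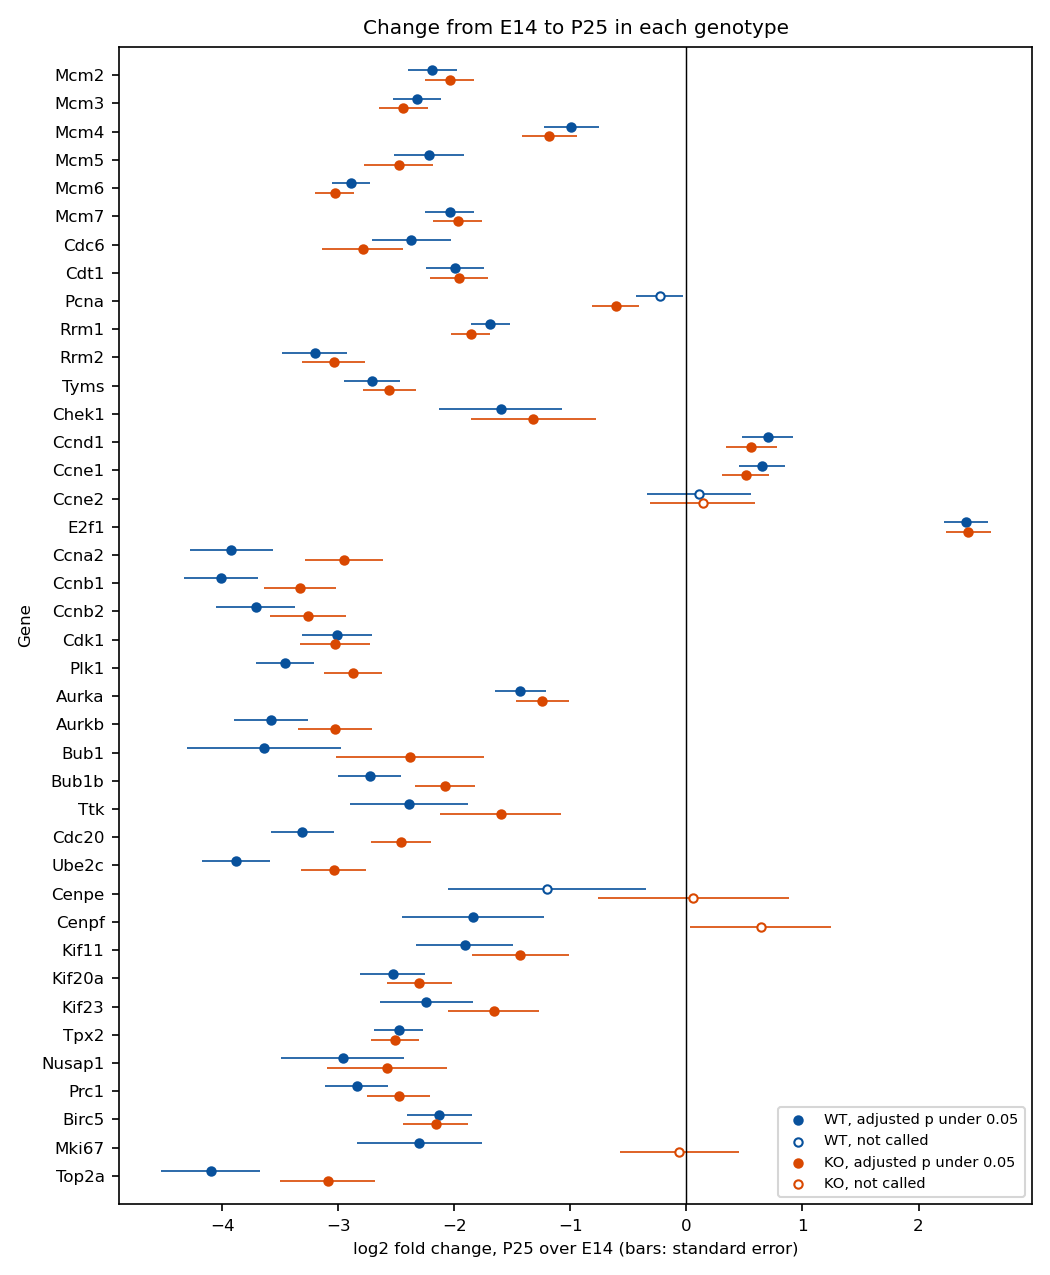
The x axis gives the log2 fold change from E14 to P25 of each of the 40 cell cycle genes (y axis), in WT (blue, upper) and KO (orange, lower), with bars for the standard error. Filled points have an adjusted p under 0.05 and open points do not. Most points lie between -1 and -4, and E2f1 stands alone near 2.4.

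The promoters of the 40 genes, whether they fell or not, were examined for the letters that regulators of the cell cycle are known to read. E2F factors bind near S-phase genes, and the MuvB complex binds the cell cycle genes homology region (CHR) of G2 and mitosis genes, often with a CCAAT box nearby. RefSeq promoters (GRCm38.p6, 250 bases before to 50 after a gene's start) were found for 33 of the 40 genes. On both strands they were searched for the CHR (TTTGAA or TTCGAA), the CCAAT box (CCAAT) and the E2F site (TTTCCCGC, TTTGGCGC, TTTCGCGC or TTTGCCGC). Overlapping matches were counted separately, and a gene counted where any of its promoters held a match. The E2F letters were in 7 of 33 genes (21.2%), against 2.6% of 27025 genes. The latter are all genes with a RefSeq promoter, also those not among the 15109 tested, whereas the 33 were all tested. Of the 7 genes, 6 were the licensing genes Cdc6, Cdt1, Mcm3, Mcm5, Mcm6 and Mcm7, with Cdk1 as the other. The CHR letters were in 17 of 33 (51.5%), against 21.7%, and the CCAAT box in 25 of 33 (75.8%), against 41.1%. Each of the 17 genes with a CHR also had a CCAAT box (51.5%, against 9.65% of all genes). All 5 spindle checkpoint and APC/C genes held a CHR. These are matches of letters in a window and were not tested as sites.

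Mcm5 and Mcm6 are shown as licensing genes with E2F letters, Cdk1 as a gene with all 3 kinds (Mcm7 held all 3 as well), and Cdc20 and Top2a as mitosis genes with a CHR. Ccne1 is shown as a gene that rose. The windows are chr8:75109259-75109558 (plus strand), chr1:128359656-128359955, chr10:69352863-69353162, chr4:118437294-118437593, chr11:99024140-99024439 and chr7:38107441-38107740 (minus strand for these 5). Each is printed 5′ to 3′ on the strand of its gene, and capitals mark every match to 1 of the 3 motifs.
Mcm5: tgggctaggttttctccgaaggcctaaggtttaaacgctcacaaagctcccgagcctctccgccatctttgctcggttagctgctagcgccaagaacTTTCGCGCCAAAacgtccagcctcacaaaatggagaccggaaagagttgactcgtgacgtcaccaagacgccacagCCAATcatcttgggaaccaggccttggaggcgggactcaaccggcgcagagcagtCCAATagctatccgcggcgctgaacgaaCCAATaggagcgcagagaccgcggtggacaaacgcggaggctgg
Mcm6: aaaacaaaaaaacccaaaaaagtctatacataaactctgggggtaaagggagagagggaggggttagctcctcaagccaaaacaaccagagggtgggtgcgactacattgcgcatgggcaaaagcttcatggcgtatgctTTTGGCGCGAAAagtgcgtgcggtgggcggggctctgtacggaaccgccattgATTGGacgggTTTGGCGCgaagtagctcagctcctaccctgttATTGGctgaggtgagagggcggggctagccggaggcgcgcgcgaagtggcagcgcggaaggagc
Cdk1: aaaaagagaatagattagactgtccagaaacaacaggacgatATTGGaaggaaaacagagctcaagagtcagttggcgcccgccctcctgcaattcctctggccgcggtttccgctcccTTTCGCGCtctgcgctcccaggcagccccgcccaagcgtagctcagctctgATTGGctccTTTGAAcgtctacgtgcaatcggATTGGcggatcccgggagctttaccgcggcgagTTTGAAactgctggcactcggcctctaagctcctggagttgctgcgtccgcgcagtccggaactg
Cdc20: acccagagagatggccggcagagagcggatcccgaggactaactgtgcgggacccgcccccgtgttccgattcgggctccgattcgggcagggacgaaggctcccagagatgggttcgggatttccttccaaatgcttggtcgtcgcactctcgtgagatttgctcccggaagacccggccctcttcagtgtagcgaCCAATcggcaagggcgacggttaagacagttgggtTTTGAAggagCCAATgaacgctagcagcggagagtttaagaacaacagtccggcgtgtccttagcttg
Top2a: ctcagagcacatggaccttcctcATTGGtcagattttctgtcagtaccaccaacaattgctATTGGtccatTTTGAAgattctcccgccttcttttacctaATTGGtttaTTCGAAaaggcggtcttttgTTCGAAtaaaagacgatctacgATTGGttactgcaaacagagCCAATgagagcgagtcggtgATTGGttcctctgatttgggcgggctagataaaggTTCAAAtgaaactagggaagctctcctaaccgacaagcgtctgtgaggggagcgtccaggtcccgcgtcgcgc
Ccne1: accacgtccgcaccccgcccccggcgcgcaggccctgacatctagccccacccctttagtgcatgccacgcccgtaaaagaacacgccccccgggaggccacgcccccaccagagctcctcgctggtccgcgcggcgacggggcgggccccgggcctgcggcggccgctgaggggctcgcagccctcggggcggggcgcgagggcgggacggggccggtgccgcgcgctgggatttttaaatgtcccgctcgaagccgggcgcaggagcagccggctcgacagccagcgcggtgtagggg

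In Mcm5, E2F letters of both strands overlapped in a single run that began 153 bases before the start. Mcm6 held such a run from 110 bases before the start and a further match 47 bases before it. Cdk1 held CHR letters 71 and 15 bases before the start, and Cdc20 held them 18 bases before it. Top2a held 4 CHR matches and 6 CCAAT boxes. No match was held by the windows of 6 genes, namely Ccne1 and E2f1, which rose, and Tyms, Chek1, Nusap1 and Birc5, which fell. For 31 of the 33 genes the RefSeq start lay within 100 bases of a coding transcript start in a GENCODE annotation of the same build. The E2f1 start lay 294 bases from the nearest such start and the Pcna start 134 bases. Measured from the gene's outermost annotated start, the starts of Mcm7 (539 and 1156 bases), E2f1 (466), Chek1 (407), Cdc6 (350) and Pcna (134) lay more than 100 bases inside the gene. These windows need not hold the main promoter, and none of them is printed.

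Further genes of the same functions showed many falls and a few rises. Of 30 replisome and origin factors, 20 fell and 1 rose in WT, and 26 fell and 1 rose in KO. Uhrf1, which helps copy DNA methylation behind the fork, fell by 3.98 in WT, Clspn, a checkpoint adaptor, by 3.33, and Dbf4, the partner of the origin kinase Cdc7, by 3.15. Gins3, a helicase cofactor, rose by 1.23 (SE 0.28, adjusted p = 0.000863) in WT and 1.12 in KO. Of 45 other mitosis genes, 36 fell and 3 rose in WT, and 30 fell and 3 rose in KO, with Kif18b (-4.08), Aspm (-3.94) and Cdc25c (-3.78) lowest in WT. The 3 that rose in WT were Smc4, a condensin subunit (1.55), Pttg1, securin (1.34), and Wee1, an inhibitory kinase of Cdk1 (0.69). All genes together were called lower in 29.8% and higher in 29.7% of cases in WT, and in 29.2% and 30.6% in KO.

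Among the regulators above E2f1, the D-type cyclin and kinase genes were mostly lower at P25. Of 5 other G1 cyclins and kinases, 4 fell and none rose in WT, and 4 fell and 1 rose in KO. Of all tested genes, 29.8% fell and 29.7% rose in WT, and 29.2% fell and 30.6% rose in KO. The G1 cyclins and kinases that fell in WT were Cdk2 (-2.46), Cdk4 (-2.40), Ccnd2 (-2.17) and Ccnd3 (-1.23). Cdk4, the main partner of cyclin D1, stood at 261, 296, 196 and 233 CPM in E14 WT and at 42.9, 45.9, 34.4 and 63.7 CPM in P25 WT, with no overlap. Cdk6 was at 0.33 (adjusted p = 0.368) in WT and rose by 1.24 (adjusted p = 0.00203) in KO. Of the E2F, RB and MuvB regulators, 10 of 11 were found, 7 fell and 1 rose in WT, and 6 fell and 1 rose in KO. Mybl2, a partner of MuvB, fell by 4.06, and the repressors E2f7 and E2f8, which are themselves E2F targets, fell by 3.51 and 3.20. Rbl2, the RB relative that acts in resting cells, rose from 17.3 ± 4.72 to 29.2 ± 3.95 CPM in WT (log2 0.76, SE 0.19, adjusted p = 0.00213).

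The inhibitors of cyclin-dependent kinases changed in opposite directions: of 6 tested, 3 rose and 1 fell in WT and in KO. All genes together were called higher in 29.7% and lower in 29.8% of cases in WT, and in 30.6% and 29.2% in KO. Cdkn1c, p57, which is known from cells leaving the cycle in the embryo, stood at 302, 350, 214 and 257 CPM in E14 WT and at 14.9, 12.7, 10.9 and 14.5 CPM in P25 WT. It fell by 4.40 (SE 0.25, adjusted p = 1.13e-11) in WT and by 4.31 in KO. Cdkn1b, p27, rose from 32.8 ± 3.33 to 64.1 ± 9.33 CPM in WT (log2 0.96, adjusted p = 5.46e-05), and Cdkn1a, p21, from 79.7 ± 20.9 to 154 ± 16.7 CPM (0.95, adjusted p = 6.71e-05). Cdkn2b, p15, rose from 0.287 ± 0.095 to 2.99 ± 0.435 CPM (3.38, adjusted p = 6.74e-08). Cdkn2c and Cdkn2d were not called, at -0.05 and 0.26 in WT. Cdkn2a was too low to be tested. It had no count in the 8 E14 libraries and 23 counts over the 4 P25 WT libraries.

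The makeup of the ganglion moved with stage as well. Schwann cell markers summed to 749 to 1210 CPM in the E14 WT libraries and 28300 to 33100 CPM in P25 WT, and satellite glia markers to 663 to 921 and 4890 to 7560 CPM. Sensory neuron markers, which define the labelled tissue, summed to 10500 to 17400 and 7810 to 10200 CPM. Macrophage markers summed to 48.6 to 69.7 CPM in E14 WT and 131 to 141 CPM in P25 WT. Erythroid markers summed to 571 to 1150 and 53.5 to 122 CPM, and endothelial markers to 170 to 215 and 51.9 to 85.2 CPM. The sums were not tested by stage. These sums are over lists of 7, 4, 8, 8, 7 and 6 genes in this order. The part of each in the fall of the cell cycle genes was not tested.

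The second comparison concerned what was left of the programme at P25 and whether it differed by genotype. No gene of the 40 was called between KO and WT at P25, where 0.0463% of all genes were. At an unadjusted p under 0.05 there were 3 of 40 (7.5%) with edgeR, against 1.87% of all genes, and DESeq2 called 0 and had 4 at an unadjusted p under 0.05. The log2 difference was above 0, KO higher, for 29 of the 40 (72.5%), against 46.4% of all genes, with a median log2 difference of 0.17 against -0.02. In 3 genes every KO library lay above every WT library, namely Mki67, Top2a and Ccna2 (7.5%, against 2.05% of all genes). In Ccne1 every KO library lay below every WT library (2.5%, against 1.28%). The median of the 40 genes was 1.61 to 1.82 CPM in the P25 WT libraries and 1.89 to 2.46 CPM in P25 KO, without overlap, and also did not overlap when library totals alone set the scale (1.52 to 1.78 and 1.81 to 2.5 CPM).

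Mki67 had the lowest p of the 40 at P25. Its KO libraries stood at 1.83 to 2.80 CPM and its WT libraries at 0.467 to 1.41 CPM, with 225 and 81 counts in all. The log2 difference was 1.56 (SE 0.54, unadjusted p = 0.00852, edgeR adjusted p = 1). Over the 24 alternatives it ranged from 1.37 to 1.98 with an adjusted p from 0.0866 to 1, the lowest with the ganglia of a shared number summed. Top2a stood at 2.06 to 3.74 CPM in KO and 0.789 to 1.81 CPM in WT, a difference of 1.02 (SE 0.42, unadjusted p = 0.0232, adjusted p = 1, and 0.193 to 1 over the alternatives). Ccna2 stood at 1.19 to 1.55 CPM in KO and 0.251 to 1.18 CPM in WT, a difference of 0.73 (SE 0.36, unadjusted p = 0.055, adjusted p = 1), and of 0.43 without P25 WT replicate 3, whose value of 0.251 CPM was the lowest. Without that library the median difference over the 40 genes was 0.08. Ccne1 stood at 12.3 to 17.1 CPM in KO and 19.5 to 20.7 CPM in WT, a difference of -0.51 (SE 0.20, unadjusted p = 0.0195, adjusted p = 1).

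**Figure D5:**
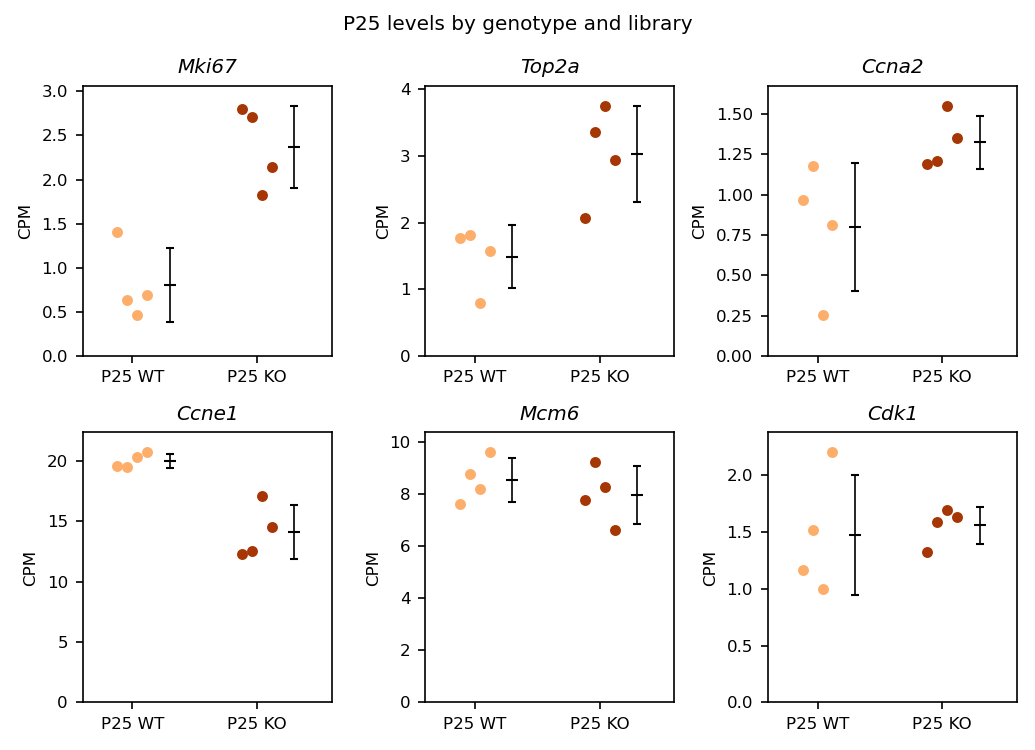
Each panel plots CPM (y axis, from 0) of 1 gene in the 4 P25 WT and the 4 P25 KO libraries (x axis); dots are libraries and the black bar is the mean ± SD (n = 4). KO libraries lie above WT for Mki67, Top2a and Ccna2, below WT for Ccne1, and overlap WT for Mcm6 and Cdk1.

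By role, the log2 difference at P25 was above 0 for all 5 spindle checkpoint and APC/C genes (median 0.37), for 8 of 9 genes of the spindle, kinetochore and cytokinesis (0.28) and for 5 of 7 mitotic cyclins and kinases (0.22). It was above 0 for 3 of 8 licensing genes (median -0.09). The summed P25 level of the licensing genes was 61.9 ± 3.32 CPM for WT (SD, n = 4) and 61.2 ± 9.9 CPM for KO, and that of the mitotic cyclins and kinases 9.62 ± 1.31 and 10.6 ± 0.443 CPM. For the genes of the spindle, kinetochore and cytokinesis it was 12.5 ± 1.99 and 15.2 ± 0.998 CPM. In each of these 3 roles the WT and KO libraries overlapped. Of the 96 tested pathway genes, edgeR called 0 between genotypes at P25, with 4 at an unadjusted p under 0.05. Their difference was above 0 for 30 of 45 other mitosis genes and 11 of 30 replisome and origin factors. Over all genes, 0.0463% were called, 1.87% had an unadjusted p under 0.05 with edgeR and 46.4% had a difference above 0.

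Transcript length moved with the P25 genotype difference over all genes. The median log2 difference was -0.14 for genes with transcripts of up to 1 kb, -0.02 at 2 to 4 kb, 0.02 at 4 to 6 kb and 0.14 at 8 to 12 kb. Mki67 has a transcript of 10061 bases and Top2a of 5221 bases, so their class medians were 0.14 and 0.02, beside differences of 1.56 and 1.02. Cenpf (11130 bases) and Cenpe (7910 bases) differed by 1.20 (SE 0.62) and 1.10 (SE 0.85), beside class medians of 0.14 and 0.08. Together with Mki67 and Top2a they had the longest transcripts of the 40 and the largest differences towards KO. The remaining genes over 4 kb, Cdc6, Mcm6, Tpx2, Cdk1 and Kif11, were at -0.37 to 0.18. By GC content the medians over all genes were 0.15 at up to 42%, 0.05 at 42 to 46%, -0.05 at 46 to 50%, -0.08 at 50 to 54% and -0.01 above. Those of the cell cycle genes in the same 5 classes were 0.19, 0.24, 0.26, -0.14 and 0.18, over 4, 10, 12, 8 and 6 genes. P25 WT replicate 4 had the strongest length trend of the 16 libraries (rho -0.67 across genes). Without it, the median difference over the 40 genes was 0.18. The part of transcript length and GC content in the differences of these genes was not tested.

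Markers of other cell types were compared at P25 in the same fit. All 6 endothelial markers were higher in KO, with sums of 51.9 to 85.2 CPM in WT and 55.3 to 102 CPM in KO, as had all 7 erythroid markers (53.5 to 122 and 88.0 to 129 CPM). All 6 tested markers of central nervous system glia were higher in KO (8.65 to 101 and 59.8 to 122 CPM), and the lowest sum was that of P25 WT replicate 3. Of 8 macrophage markers 2 were higher in KO (131 to 141 and 108 to 143 CPM). The 4 lymphocyte markers summed to 2.36 to 4.71 CPM in WT and 4.22 to 5.38 CPM in KO, and the 1 that could be tested was higher in KO. Of the markers of sensory neurons, satellite glia, Schwann cells and fibroblasts or mural cells, 5 of 8, 2 of 4, 3 of 7 and 3 of 5 were higher in KO. edgeR called no marker, and their part in the P25 values of the cell cycle genes was not tested.

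At E14, too, no gene of the 40 was called between KO and WT, where 0.0199% of all genes were. At an unadjusted p under 0.05 there were 3 of 40 (7.5%) with edgeR, against 4.86% of all genes, while DESeq2 called 0 and had 4. The log2 difference was above 0 for 17 of the 40 genes (42.5%, against 43.3% of all genes) and below 0 for 23 (57.5%, against 56.7%), with a median of -0.06. This split rested on single libraries: 12 were above 0 without E14 WT replicate 2, 8 without E14 WT replicate 3 and 25 without E14 WT replicate 4. Cdc20 had the lowest p, at 18.1, 26.7, 15.5 and 19.1 CPM in WT and 12.4, 9.33, 12.4 and 15.5 CPM in KO. The groups met at 15.5 CPM, and the difference was -0.67 (SE 0.24, unadjusted p = 0.0119, adjusted p = 0.942), or -0.50 without E14 WT replicate 2. Aurkb, the kinase of the chromosomal passenger complex, stood at 6.33, 7.75, 5.80 and 8.24 CPM in WT and 2.91, 4.99, 4.60 and 4.81 CPM in KO, a difference of -0.70 (SE 0.27, unadjusted p = 0.0193, adjusted p = 0.942). It was the single gene of the 40 in which KO lay wholly below WT (2.5%, against 1.11% of all genes), and none lay wholly above (0.523%).

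Cenpf stood at 0.688, 0.244, 1.31 and 2.02 CPM in E14 WT and at 0.379, 0.513, 0.233 and 0.619 CPM in E14 KO, a difference of -1.27 (SE 0.60, unadjusted p = 0.0474, adjusted p = 0.942). It was -0.73 without E14 WT replicate 4 and -1.58 without replicate 2. Pcna was higher in KO by 0.41 (SE 0.20, unadjusted p = 0.054, adjusted p = 0.942), with libraries that overlapped, by 0.27 without E14 WT replicate 2 and by 0.63 without E14 WT replicate 4. All 5 spindle checkpoint and APC/C genes had a difference below 0 (median -0.63), against 56.7% of all genes. At this stage long transcripts leaned the other way, with a median difference of 0.21 over all genes up to 1 kb and -0.18 at 8 to 12 kb. Macrophage markers were lower in KO for all 8 genes (48.6 to 69.7 CPM in WT and 29.1 to 43.6 CPM in KO). The part of either in the values of the cell cycle genes was not tested.

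Whether the genotype difference itself changed with stage was tested as an interaction, P25 minus E14. No gene of the 40, and no gene of the 15109, was called by edgeR. DESeq2 called 0 of the 40 and 8 of all genes. At an unadjusted p under 0.05, 4 of the 40 (10%) passed with edgeR and 5 with DESeq2, against 4.28% of all genes with edgeR. They were Mki67 (2.24, SE 0.73), Cenpf (2.47, SE 0.86), Cdc20 (0.86, SE 0.36) and Ube2c (0.84, SE 0.39), with an edgeR adjusted p of 0.993 each. Mki67 and Cenpf have transcripts of 10061 and 11130 bases. Over all genes of 8 to 12 kb, the median genotype difference was -0.18 at E14 and 0.14 at P25. The part of transcript length in the interaction was not tested. Without E14 WT replicate 2, Mki67 reached 2.62 with an adjusted p of 0.0689, its lowest over the runs that left out 1 library, and without E14 WT replicate 4 it was 1.84. Whether the fall of Mki67 from E14 to P25 differed between WT (-2.3) and KO (-0.06) is the same interaction, and it did not pass the threshold.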

How the data were processed

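Per the labels' protocols, RNA of single ganglia was extracted with TRIzol and made into stranded, polyadenylated RNA libraries. The values are estimated counts per gene, deposited as whole numbers by the authors. Per the submitters' processing notes, the tools were kallisto 0.46, fastp 0.20.0 and DESeq2 1.32.0, and the build was GRCm39; no role or order is stated. The sources used here give neither a strand setting nor an annotation release. No other per-sample column was present (0).

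Each file listed 25719 identifiers, of which 25614 had a symbol. All 16 libraries (15532373 to 29562379 counts) were fitted together with edgeR 4.0.16 in R 4.3.3: TMM scaling, edgeR's low-count filter (15109 genes kept), the quasi-likelihood test and Benjamini-Hochberg adjustment. Every adjusted p in the text comes from this fit unless DESeq2 (version 1.42.0) is named. The 40 genes, the pathway and marker lists and the tests were chosen with earlier results of these data known. Values in every library are given for 12 of the genes chosen by name, for the 3 with the most and the 3 with the least negative stage change in WT, and for the 4 with the lowest p in each genotype comparison. Other mentions of the 40 are of role extremes, uncalled genes and further genes of a role, picked after their values were seen. Of each pathway list, up to 3 called genes each way are named, with all tested CDK inhibitors. Cdk6 and Ccnd3 were added after their values were seen. Each group enters both a stage and a genotype comparison, so these share libraries. The scripts were tested on simulated data. Transcript length and GC content were those of the longest coding transcript in a GENCODE annotation (GRCm38), and promoters were those of RefSeq (GRCm38.p6). The replicate numbers did not pair the groups: of 24 same-numbered pairs, 7 had deviations correlated above 0.1 (range -0.43 to 0.27). No 2 libraries of a group agreed within sampling noise.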

Additional observations from a re-analysis of the deposited data

Results flagged for a closer look

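In groups of 4 libraries, a gene was picked out where its highest or lowest library lay further from the nearest of the others, relative to the whole range of the group, than Dixon's 95% critical value for 4 values. Of 168 groups looked at, 10 were picked out, about as many as chance gives at 1 in 20.

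Among the licensing genes, Mcm4 stood at 13.6 CPM in E14 KO replicate 1 and at 19.3 to 20.3 CPM in the other 3 libraries. Mcm7 stood at 17.8 CPM in P25 KO replicate 3, against 13 to 13.6 CPM. Cdc6, the helicase loader, stood at 1.15 CPM in P25 KO replicate 1, against 0.388 to 0.456 CPM.

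Of the G1 genes, Ccne2 stood at 3.26 CPM in P25 WT replicate 1, against 1.58 to 1.61 CPM, and E2f1 at 10.3 CPM in E14 KO replicate 1, against 7.84 to 8.1 CPM.

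Of the mitosis genes, Ccnb1 stood at 0.845 CPM in P25 WT replicate 1, against 0.348 to 0.431 CPM, and Kif23 in the same library at 1.09 CPM, against 0.541 to 0.59 CPM. Plk1 was low in P25 WT replicate 2, at 0.885 CPM against 1.76 to 1.78 CPM. Tpx2 was low in P25 WT replicate 4, at 2.09 CPM against 3.01 to 3.06 CPM. Ttk was low in E14 WT replicate 2, at 0.671 CPM against 1.47 to 1.62 CPM.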

How the results depend on the processing

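Over the 24 alternatives to the main fit, 32 to 34 of the 40 genes were called lower with stage in WT and 31 to 33 in KO, and none was called by genotype. None was called by the interaction in the 23 alternatives that could be run for it (22 for Cenpf). The 3 genes called higher with stage in KO became 1 with the replicate block (Ccne1 adjusted p = 0.0547, Ccnd1 adjusted p = 0.0614), and ranged from 1 to 3 when single libraries were left out (1 without E14 KO replicate 1, E14 KO replicate 2 or P25 KO replicate 3). The replicate block also ended the Chek1 call in KO (adjusted p = 0.0604). The uncalled stage change of Pcna in WT ranged from -0.37 to 0.01 (without E14 WT replicate 4). That of Mki67 in KO ranged from -0.15 to 0.08 (without E14 KO replicate 3) and was also above 0 without P25 KO replicate 3 (0.04) or replicate 4 (0.01). For these sign changes the cause was not tested.

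Over all genes, the 7 calls by genotype at P25 became 17 with DESeq2, 3 with only the compared libraries, 3 with the replicate block and 11 with the ganglia of a shared number summed, and 3 to 14 without single libraries (14 without P25 KO replicate 4). The 3 calls at E14 became 6 with DESeq2 and 1 to 5 (5 without E14 WT replicate 2). The 0 interaction calls became 8 with DESeq2 and 0 to 7 (7 without P25 KO replicate 4). Bub1 in WT and Ttk in KO were not tested with only the compared libraries, and Cenpf was not tested at a minimum of 1 CPM in 4 libraries. Low counts limit the P25 values of Mki67, Bub1, Ttk, Cenpe and Cenpf. The same holds for Cdc6, Chek1, Ccna2, Ccnb1, Ccnb2, Aurkb, Ube2c, Kif23 and Nusap1. Each of these genes held at most 81 counts over the 4 P25 WT libraries.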
